A study of Mus musculus with 3 samples.

Results

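The Ikaros zinc finger family comprised 5 genes, Ikzf1 to Ikzf5, and all 5 were on the array. They were taken by gene symbol. The 5 genes were represented by 13 probe sets, among 34945 probe sets annotated to a single gene symbol and 18193 genes in all. Messenger RNA had been measured once in each of 3 mouse cell populations of the C57BL/6 strain. The populations were CD4 T cells and B220 B cells, both sorted magnetically from spleens of mice 6 to 8 weeks old, with a stated purity over 98%, and embryonic stem (ES) cells of the B6N-22 line. The ES cells had grown with leukemia inhibitory factor on a feeder layer of embryonic fibroblasts arrested with mitomycin C. The cells carried no engineered allele and had received no agent that the labels name. How many mice stood behind each lymphocyte array, and whether feeders were taken off the ES cells, the labels do not say. Each population had a single array, so no value has a replicate error and no test was run.

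Ikaros family proteins are zinc finger transcription factors of the lymphoid system. Amino-terminal zinc fingers bind DNA, and carboxy-terminal zinc fingers join members into homodimers and heterodimers, so that the set of members a cell makes decides which dimers it can form. Ikzf1 encodes Ikaros, which is needed for lymphocyte development. Ikzf3 encodes Aiolos, known for its role in B cell maturation and activation. Ikzf2 encodes Helios and Ikzf4 encodes Eos, both studied chiefly in regulatory T cells, and Ikzf5 encodes Pegasus, the most divergent member, which is found in many tissues. Ikaros acts in part through the nucleosome remodelling and deacetylase complex, NuRD, and through the corepressors CtBP and Sin3.

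RefSeq promoter windows of build GRCm38.p6 were at hand for 2 of the 5 genes, with 3 entries of 300 bases, each spanning an annotated transcription start. They are shown as the windows at hand, for a member that was under the detection level in ES cells (Ikzf1) and a member with signal in all 3 populations (Ikzf5). Capitals mark matches on either strand to GGGAA, the core of the Ikaros recognition sequence, and to CAGGAAG, a form of the sequence bound by ETS factors. The matches shown do not overlap each other.
Ikzf1, upstream start, chr11:11685675-11685974, plus strand: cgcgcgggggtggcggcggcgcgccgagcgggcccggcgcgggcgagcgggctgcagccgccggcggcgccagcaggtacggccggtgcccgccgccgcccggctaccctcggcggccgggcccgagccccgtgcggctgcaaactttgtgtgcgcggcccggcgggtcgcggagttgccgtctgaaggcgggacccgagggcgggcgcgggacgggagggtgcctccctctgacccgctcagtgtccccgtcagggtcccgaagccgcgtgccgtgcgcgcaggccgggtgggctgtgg
Ikzf1, downstream start, chr11:11689927-11690226, plus strand: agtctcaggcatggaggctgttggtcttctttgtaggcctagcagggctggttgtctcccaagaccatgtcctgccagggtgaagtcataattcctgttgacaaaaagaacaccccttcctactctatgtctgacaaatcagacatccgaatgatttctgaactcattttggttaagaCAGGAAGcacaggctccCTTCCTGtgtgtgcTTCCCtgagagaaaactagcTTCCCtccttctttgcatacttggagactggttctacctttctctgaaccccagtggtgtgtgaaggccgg
Ikzf5, chr7:131410429-131410728, minus strand: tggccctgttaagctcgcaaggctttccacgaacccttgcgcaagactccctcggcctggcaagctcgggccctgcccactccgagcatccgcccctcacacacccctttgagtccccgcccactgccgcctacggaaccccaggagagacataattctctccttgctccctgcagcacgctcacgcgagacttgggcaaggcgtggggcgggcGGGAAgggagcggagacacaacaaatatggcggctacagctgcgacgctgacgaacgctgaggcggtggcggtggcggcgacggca

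The 2 Ikzf1 windows differed in base composition. The upstream window held 52 CpG dinucleotides and 81.3% G and C, and 99.4% of 32851 promoter windows of the same length held fewer CpG. The downstream window held 2 CpG and 49% G and C. The Ikzf5 window held 27 CpG, against a median of 7 over all windows. GGGAA matched 2 times in the downstream Ikzf1 window, 1 time in the Ikzf5 window and 0 times in the upstream Ikzf1 window, and 62.7% of all windows held a match. CAGGAAG matched 2 times in the downstream Ikzf1 window and in neither other window, and 13.3% of all windows held it. The longer Ikaros form TGGGAA, which contains GGGAA, and the ETS form CGGAAG had 0 matches in the 3 windows, with 25.6% and 16.9% of all windows holding them. These are descriptions of letters, and no binding or start site use was measured here.

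Signals are the authors' probe set intensities on a linear scale. The detection level was set at the median of all values, a signal of 95. Values under it were raised to it before folds were computed, so that a fold against an array under the level is a lower bound and is given as "at least" that fold. A gene was called measured where either array of a comparison was above the level, and was counted where the arrays differed at least 4-fold. Signals of different probe sets depend on their probes, so they were compared between arrays and not between genes. The disagreement of a gene's 2 brightest probe sets gave the only error estimate, an SD of 0.63 on the log2 scale for T cells against ES cells, 0.61 for B cells against ES cells and 0.35 for T cells against B cells. It was taken over probe sets above the detection level on both arrays of a comparison. It covers probe effects and not the spread between cultures or animals.

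Markers of the labelled populations were highest on their own arrays, and markers of other cell types were present beside them. All 9 T cell markers were above the detection level on the T cell array, led by Cd3d at 17144 and Cd3g at 12798. All 8 B cell markers were above it on the B cell array, led by Ms4a1 at 32919 and Cd79b at 31707, and all 8 ES cell markers on the ES cell array, led by Dppa5a at 46811 and Tdgf1 at 15656. The 12 macrophage markers, all above the level on both lymphocyte arrays, summed to 74182 in T cells, 30662 in B cells and 5571 in ES cells. The receptor gene Csf1r and the adhesion gene Vcam1 led that list at 19275 and 11112 in T cells and at 8930 and 4313 in B cells, and Lyz2 and Hmox1 led it in ES cells at 2836 and 1177. The 9 fibroblast markers summed to 65648 in ES cells, led by Acta2 at 16854 and Fn1 at 16091, against 474 in T cells and 592 in B cells.

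**Figure D1:**
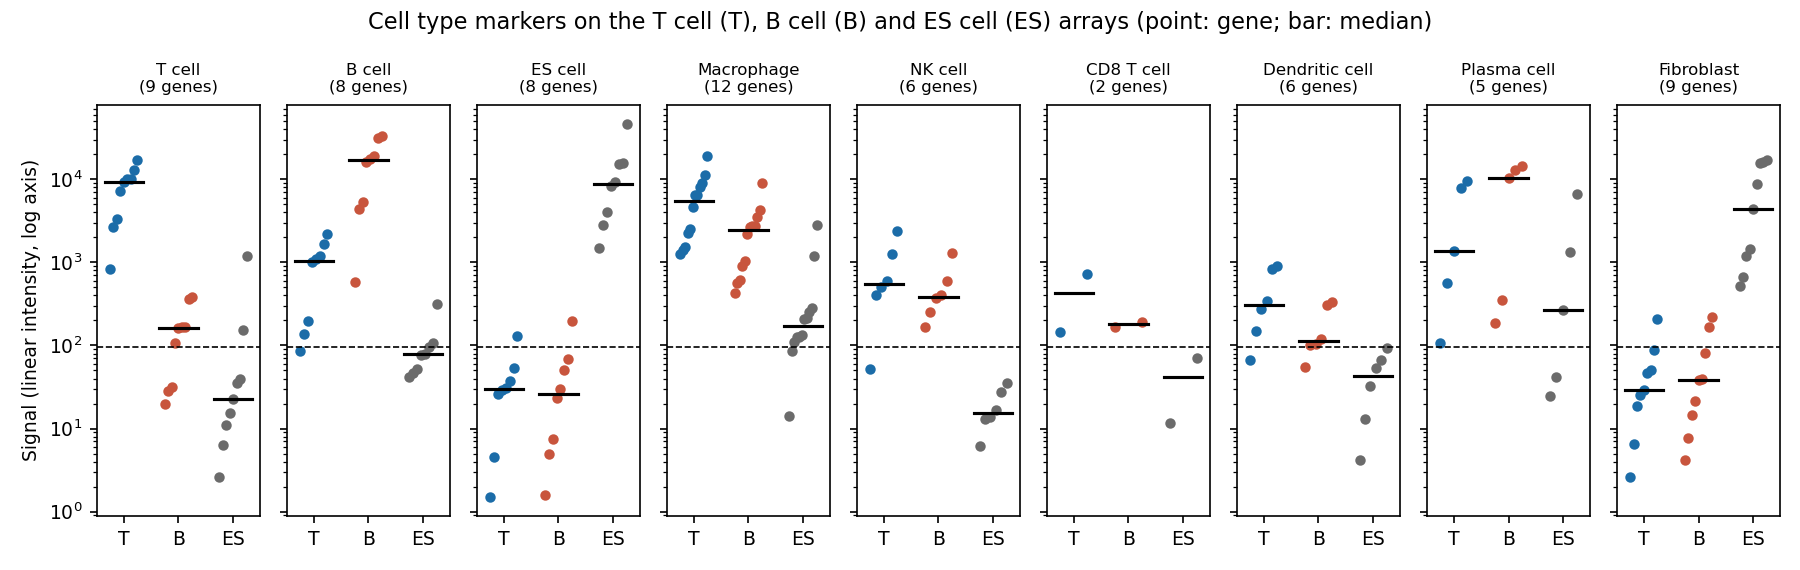
Signal of each cell type marker on the T cell, B cell and ES cell arrays, on a log axis, with 1 point per gene, a bar at the median and a dashed line at the detection level of 95. Each marker of T cells, B cells and ES cells is brighter on its own population's array than on the others, and all 12 macrophage markers are above the detection level on both lymphocyte arrays.

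Ikzf1, the founding member, was high in both lymphocyte populations and was below the detection level in ES cells. Its brightest probe set read 10765 in T cells, 9518 in B cells and 4.7 in ES cells. T cells exceeded ES cells by at least 113-fold and B cells exceeded them by at least 100-fold. The lymphocyte arrays differed by 0.18 on the log2 scale, less than the disagreement between probe sets. The other Ikzf1 probe set was dim, with 143.1 in T cells, 192.7 in B cells and 70.7 in ES cells. It kept the order of lymphocytes above ES cells, at no less than 1.51-fold and 2.03-fold, and it put T cells at 0.743 of B cells.

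With all values floored at the detection level, 25 of 12325 measured genes had a greater difference or bound than Ikzf1 in T cells against ES cells, and 47 of 12463 in B cells against ES cells. Both Ikzf1 values are themselves bounds, so these ranks depend on the floor. Macrophages also express Ikzf1, and the macrophage markers were above the detection level on both lymphocyte arrays. As a list they summed higher on both lymphocyte arrays than on the ES cell array, and each had 2.10 to 3.32 times its B cell signal in T cells, and Ikzf1 had 1.13 times. Their part in the Ikzf1 signal was not tested.

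Ikzf3, encoding Aiolos, was highest in B cells by each of its 3 probe sets. The brightest probe set read 1648 in T cells, 5696 in B cells and 24.3 in ES cells. The second read 231.6 in T cells, 472.5 in B cells and 81.7 in ES cells, and the third 181.1, 560.9 and 29.8 in the same order of populations. All 3 were above the detection level in both lymphocyte populations and under it in ES cells.

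By the brightest probe set, the Ikzf3 signal of T cells was at least 17.4 times, and that of B cells at least 60.0 times, that of ES cells. The dimmer probe sets gave bounds of 2.44-fold and 1.91-fold for T cells and of 4.97-fold and 5.90-fold for B cells. Between the lymphocytes, Ikzf3 was 3.46-fold lower in T cells, or 2.04-fold and 3.10-fold lower by the dimmer probe sets. The difference of -1.79 on the log2 scale did not reach 4-fold, and 97.7% of 11194 measured genes had a higher value in this comparison.

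B cell transcripts were present on the T cell array. The 8 B cell markers summed to 7612 in T cells and 127692 in B cells. For the 7 that were above the detection level on both arrays, the T cell signal was 2.61% to 9.53% of the B cell signal. Pax5 was under that level in T cells at 85.2. The T cell signals of the 3 Ikzf3 probe sets were 28.9%, 49.0% and 32.3% of their B cell signals, and the part of B cell RNA in them was not tested. The 5 plasma cell markers, led by Jchain at 9642 and Xbp1 at 7909 in T cells and by Mzb1 at 14591 and Jchain at 13002 in B cells, summed to 19589 in T cells and 38486 in B cells. In a bulk sample, fewer cells expressing a gene and less RNA per cell cannot be told apart.

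Ikzf2, encoding Helios, was the member with the widest gap between the lymphocytes. Its brightest probe set read 5684 in T cells, 71.7 in B cells and 114.3 in ES cells, and its second 3474 in T cells, 67.4 in B cells and 54.9 in ES cells. T cells alone were high by both. The third Ikzf2 probe set stayed under the detection level on all arrays, with 89.7 in T cells, 4 in B cells and 1.7 in ES cells.

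Against B cells, the Ikzf2 signal of T cells was at least 59.8-fold higher, and with all values floored, 4 of the 11194 measured genes had a greater difference or bound. The rank depends on the floor, since the B cell signal was under the detection level. The second probe set gave at least 36.6-fold against B cells and also at least 36.6-fold against ES cells, since both were under the detection level. Against ES cells the brightest probe set gave 49.7-fold. The T cell markers summed to 1423 in B cells, where 6 of them were above the detection level. Over all 9 T cell markers the B cell signals were 0.858% to 3.74% of the T cell signals. Over the 6 above the detection level they were 1.27% to 3.74%. The Ikzf2 signal of B cells, itself under the detection level, was 1.26% of that of T cells. In B cells the Ikzf2 signal was at least 1.20-fold lower than in ES cells, again a bound. With no floor and 16 added before the log2, the difference was -0.57. The disagreement between probe sets does not cover signals under the detection level, as in B cells here.

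Ikzf4, encoding Eos, had the same calls as Ikzf2 in the 3 comparisons. Its brightest probe set read 663.4 in T cells, 37.3 in B cells and 118.7 in ES cells, and its second 438.1 in T cells, 8.9 in B cells and 48.8 in ES cells. Ikzf4 was 5.59-fold higher in T cells than in ES cells and at least 6.98-fold higher than in B cells. The second probe set gave at least 4.61-fold against either. The third read 6.7 in T cells, 10.4 in B cells and 11.3 in ES cells, all under the detection level. In B cells the brightest probe set was at least 1.25-fold lower than in ES cells. This is a bound, so it cannot be set against the disagreement between probe sets. With no floor and 16 added before the log2, the difference was -1.34, and the disagreement does not cover a B cell signal under the detection level.

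Markers of cells that could accompany CD4 T cells were set beside these values. NK cells can also express Ikzf2. The 6 NK cell markers summed to 5177 in T cells, 3062 in B cells and 112 in ES cells, led by Klrd1 at 2355 and Nkg7 at 1272 in T cells and by Gzma at 1279 and Klrd1 at 590.2 in B cells. Ncr1, a defining NK cell receptor gene, was under the detection level in T cells at 51.9 and above it in B cells at 168.3. For the 5 NK cell markers above the detection level on both lymphocyte arrays, the T cell signal was 0.320 to 3.99 times the B cell signal. The part of NK cells in the Ikzf2 signal was not tested. The CD8 chain genes Cd8a and Cd8b1 read 145.4 and 715.6 in T cells and 193.2 and 165.5 in B cells. The 6 dendritic cell markers, led by Itgax at 903.6 and Siglech at 834.4 in T cells and by Siglech at 336.8 and Itgax at 303.2 in B cells, summed to 2570 in T cells, 1020 in B cells and 263 in ES cells.

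Ikzf5, encoding Pegasus, was above the detection level in all 3 populations by both of its probe sets. The brighter read 1476 in T cells, 1211 in B cells and 444.7 in ES cells, and the other 440.3 in T cells, 391.8 in B cells and 265.3 in ES cells. The lymphocytes were above ES cells by both, at 3.32-fold and 1.66-fold for T cells and at 2.72-fold and 1.48-fold for B cells, and no difference reached 4-fold. T cells were 1.22-fold above B cells, a gap of 0.29 on the log2 scale within the disagreement between probe sets. Ikzf5 was the only member that was above the detection level in all 3 populations.

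**Figure D2:**
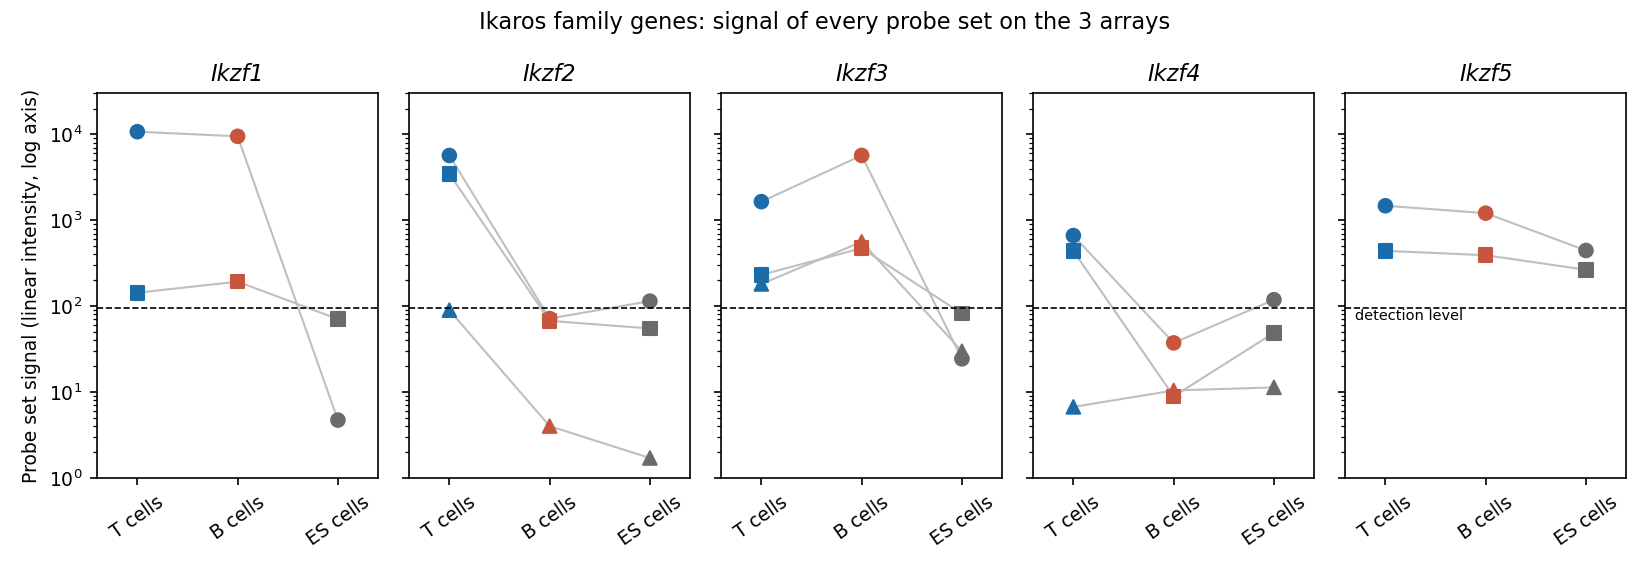
Signal of each of the 13 Ikaros family probe sets in T cells, B cells and ES cells, on a log axis, with marker shapes for the probe sets of a gene, lines joining 1 probe set across arrays, and a dashed line at the detection level. Ikzf1 and Ikzf3 are bright in both lymphocyte populations, Ikzf2 and Ikzf4 in T cells, and Ikzf5 in all 3 populations.

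By count, T cells exceeded ES cells at least 4-fold in 4 of the 5 members (Ikzf1, Ikzf2, Ikzf3 and Ikzf4), and 0 were lower. Of all measured genes, 10.8% were counted higher in that comparison and 10.2% lower. In B cells 2 of 5 were at least 4-fold higher than in ES cells (Ikzf1 and Ikzf3) and 0 lower, where 9.85% of measured genes were counted higher and 10.3% lower. In T cells against B cells 2 of 5 were at least 4-fold higher (Ikzf2 and Ikzf4) and 0 lower, where 2.49% of measured genes were counted higher and 1.85% lower. The median log2 differences of the 5 members were 4.12, 1.45 and 0.29 in these comparisons, beside -0.11, -0.07 and -0.05 over all measured genes. The comparisons against ES cells share the ES cell array.

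The counts depended on the probe sets. Where every probe set of a gene above the detection level had to pass 4-fold, an alternative chosen after seeing the data, 2 members (Ikzf2 and Ikzf4) were higher in T cells than in ES cells, with 7.25% of measured genes counted higher, and 1 (Ikzf3) in B cells, with 6.83%. Both members counted higher in T cells against B cells, Ikzf2 and Ikzf4, remained, with 1.63% of measured genes. The Ikzf1 and Ikzf3 probe sets that fell short against ES cells were too dim to reach 4-fold over the floor. With the mean of all probe sets, Ikzf4 was no longer counted in T cells against either other population. Its log2 differences were then 1.67 against B cells and 1.56 against ES cells. That mean takes in the third Ikzf4 probe set, under the detection level on all arrays, at a log2 difference of 0. With every probe set required, dim ones included, 0 members were counted higher in T cells against either. Raising the detection level to the 65th percentile, a signal of 244.5, put Ikzf4 at no less than 1.44 on the log2 scale against either. These are bounds, so Ikzf4 was not counted there, and a difference of 4-fold is neither shown nor excluded.

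**Figure D3:**
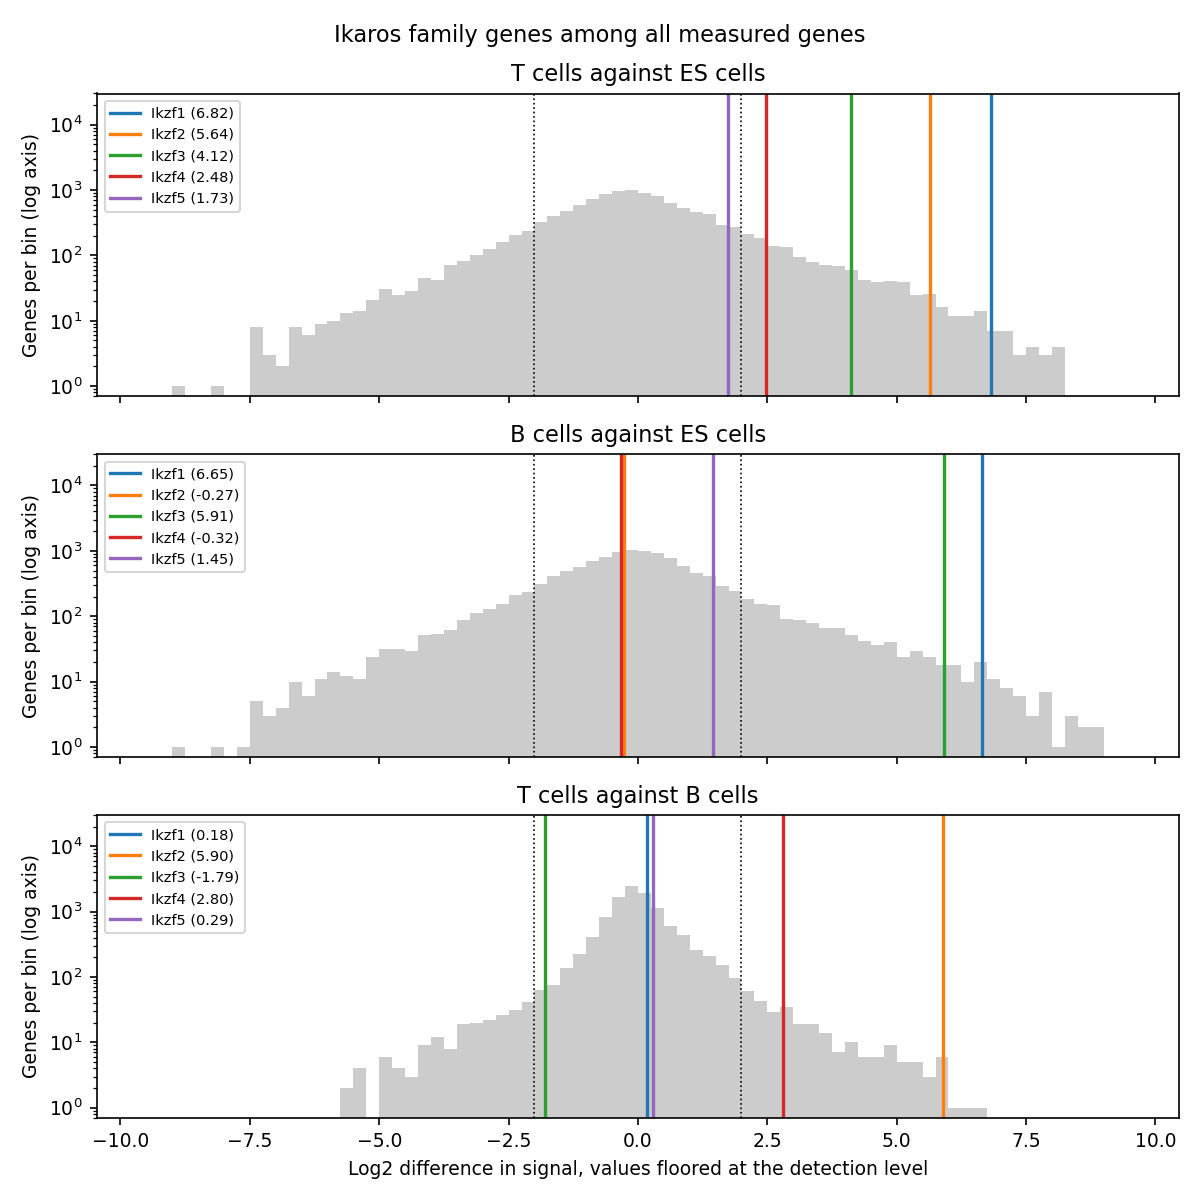
Histograms of the log2 difference of all measured genes in the 3 comparisons, with gene counts per bin on a log axis, a coloured line for each Ikaros family gene and dotted lines at 4-fold. Ikzf1 lies far right in both comparisons against ES cells (6.82 and 6.65) and near 0 between the lymphocytes (0.18), while Ikzf2 lies at 5.90 in T cells against B cells and Ikzf3 at -1.79.

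The genes nearest in pattern to each member were found by Euclidean distance between log2 signals, floored at the detection level and centred on their mean over the 3 arrays, among genes above the level on the same arrays. For Ikzf1 they were Ifi27l2a, Ablim1, Psmb8, Rac2 and Tbc1d10c, at distances of 0.17 to 0.22 among 1044 genes. For Ikzf3 they were Igk, Igkv9-120, Ncf4, Stap1 and Plek, at 0.16 to 0.22 among the same number. Igk and Igkv9-120 are names of the immunoglobulin kappa locus, Ncf4 encodes a subunit of the phagocyte oxidase and Stap1 a B cell signalling adaptor.

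Ikzf2 had no close neighbour within its pool, the 371 genes above the level in T cells and ES cells but not in B cells. Its place there rested on an ES cell signal of 114.3, near the level of 95, and its second probe set read 54.9. Genes outside the pool were not compared. One of them, Icos, had T cell log2 differences of 5.44 against ES cells and 5.36 against B cells, beside 5.64 and 5.90 for Ikzf2. Within the pool Als2cl was nearest at 0.86, then the T cell development gene Themis at 1.54. Tnfsf11, which encodes the cytokine RANKL, followed at 1.97, Sntb1 at 2.12 and Sytl2 at 2.20. Ikzf4 had Mboat1 at 0.08, Hs3st3b1 at 0.22, Sdcbp2 and Ptpn13 at 0.25 and Sema4f at 0.28 in the same pool. For Ikzf5 the nearest of 8598 genes were Spty2d1, Rap1a, Tln1, Msl2 and Znfx1, at 0.03 to 0.05. In each member's own pool, the genes within a distance of 0.5 were 17 for Ikzf1, 0 for Ikzf2, 11 for Ikzf3, 15 for Ikzf4 and 747 for Ikzf5. With 3 arrays such likeness is a description of shape.

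Of 13 subunits of the NuRD complex, all measured, 2 were counted higher in T cells against ES cells, 0 lower and 11 neither, beside 10.8% higher and 10.2% lower over all measured genes, with a median log2 difference of -0.38. Medians of all lists take genes under the detection level at that level. Chd3, a remodelling helicase subunit, read 2309 in T cells and 211.1 in ES cells, 10.9-fold higher, and Mbd2, the methylated DNA binding subunit, read 4384 and 602.4, or 7.28-fold higher. In B cells 1 of 13 was counted higher, Mbd2 at 4.77-fold with a signal of 2872, and 0 lower, beside 9.85% and 10.3% of all measured genes, with a median of -0.59. With scaling to a common 75th percentile, 0 of 13 were counted higher in B cells and 2 higher and 1 lower in T cells. Between T cells and B cells 0 of 13 passed 4-fold, with a median of -0.02. Chd4, the main helicase found with Ikaros, read 2552 in T cells, 2817 in B cells and 2343 in ES cells, and was named after its values were seen. Both counted members were against the sign of their list's median.

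Of 4 other corepressor genes on the array, 1 was counted lower in each lymphocyte population than in ES cells and 0 higher, where 10.2% of all measured genes were lower in T cells and 10.3% in B cells. It was Ctbp2, with 357.6 in T cells, 169 in B cells and 16215 in ES cells, 45.3-fold lower in T cells and 95.9-fold lower in B cells. The remaining 3 (Ctbp1, Sin3a and Sin3b) stayed within 4-fold, and between the lymphocytes 0 of 4 passed it. The list medians were -0.50 for T cells and -0.37 for B cells against ES cells and -0.04 between the lymphocytes.

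The cereblon ubiquitin ligase is the enzyme through which lenalidomide brings about degradation of human Ikaros and Aiolos proteins. Of its 5 genes, 1 was at least 4-fold lower in each lymphocyte population than in ES cells, 0 were higher and 4 were neither, where 10.2% of all measured genes were lower in T cells and 10.3% in B cells. With scaling to a common 75th percentile 2 were lower in each. Cul4b, a cullin scaffold, read 1247 in T cells, 1742 in B cells and 8580 in ES cells, 6.88-fold lower in T cells and 4.92-fold lower in B cells, against list medians of 0.57 and 0.12. The second median changed sign with quantile normalization (-0.22) and with scaling to a common 75th percentile (-0.23). Between T cells and B cells 0 of 5 reached 4-fold, with a median of 0.13.

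Lymphocyte genes reported as targets of Ikaros or Aiolos went in both directions. Of 13 measured in T cells against ES cells, 6 were at least 4-fold higher, 1 lower and 6 neither, with a median of 1.98. Over all measured genes 10.8% were higher and 10.2% lower. Il7r, the interleukin-7 receptor gene, read 12791 in T cells, 233.3 in B cells and 49.9 in ES cells, so that T cells exceeded ES cells at least 135-fold and B cells 54.8-fold. Bcl2, the survival gene, was 25.2-fold higher in T cells than in ES cells, Dtx1 10.9-fold and Cd4 at least 8.78-fold. The dimmer probe sets of Dtx1 and Cd4 gave smaller log2 differences, 1.18 and 1.40. Hes1, a Notch target that Ikaros represses in thymocytes, was the member counted lower in T cells, 4.44-fold, with 150.4 in T cells, 1234 in B cells and 668.2 in ES cells.

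In B cells 3 of 10 measured targets were at least 4-fold higher than in ES cells, 0 lower and 7 neither, with a median of 1.16, beside 9.85% higher and 10.3% lower over all measured genes. They were Bcl2 at 24.9-fold, Dtx1 at 15.0-fold and Bcl6 at 10.1-fold, where the dimmer probe sets of Dtx1 and Bcl6 gave log2 differences of 1.12 and 1.53. In T cells against B cells 3 of 12 were counted higher, 1 lower and 8 neither, with a median of -0.17, beside 2.49% higher and 1.85% lower over all measured genes. Besides Il7r these were Cd4, at least 8.78-fold higher, and Notch1, 4.31-fold higher, whose dimmer probe set gave a log2 difference of 1.20. Hes1 was 8.21-fold lower in T cells. The recombinase genes Rag1 and Rag2 were under the detection level on all 3 arrays, at most 19.2 and 17.8, both in B cells.

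Genes of regulatory T cells were listed because Helios and Eos are studied there. Of 13 on the array, all measured, 9 were counted higher in T cells against ES cells, 0 lower and 4 neither, with a median of 2.47, where 10.8% of all measured genes were higher. Against B cells 9 of 13 were also counted higher in T cells, 0 lower and 4 neither, with a median of 2.30, where 2.49% of all measured genes were higher. Icos, a costimulatory receptor gene, read 4136 in T cells, 100.5 in B cells and 45.1 in ES cells, and T cells exceeded B cells 41.2-fold. Izumo1r, the folate receptor 4 gene, read 3339 in T cells, 54.6 in B cells and 60.5 in ES cells, at least 35.1-fold higher than in either. Ctla4, an inhibitory receptor gene, exceeded its ES cell signal at least 36.2-fold and its B cell signal 21.2-fold in T cells. In T cells Tnfrsf18, encoding GITR, exceeded its ES cell signal at least 33.9-fold, and Nrp1 exceeded its B cell signal 11.6-fold.

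Foxp3, the defining transcription factor gene of regulatory T cells, read 297.2 in T cells, 69.2 in B cells and 31.1 in ES cells. Its folds of no less than 3.13 against either are bounds set by the floor. Foxp3 was therefore not counted, though a difference of 4-fold is not excluded, and it was named after its value was seen. With no floor and 16 added before the log2, 11 of 13 genes of the list were counted higher in T cells against ES cells. Against B cells 9 were. In B cells 2 of 7 measured genes of the list were counted higher than in ES cells, 1 lower and 4 neither, with a median of 0.77, beside 9.85% higher and 10.3% lower over all measured genes. In B cells Tnfrsf18 was at least 10.4-fold higher and the actin capping gene Capg 5.74-fold, with a log2 difference of 1.06 from the dimmer Capg probe set. Nrp1, at 188.3 in B cells and 1086 in ES cells, was 5.77-fold lower, although the smallest log2 difference among its probe sets was -0.12. The share of regulatory cells among the CD4 T cells was not measured.

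Lymphoid transcription factors outside the family were mostly higher in both lymphocyte populations than in ES cells. Of 14 measured in T cells against ES cells, 11 were counted higher, 0 lower and 3 neither, and their median was 3.24, where 10.8% of all measured genes were higher. Bcl11b, a T lineage factor gene, was 87.6-fold higher, Ets1 75.3-fold, Bach2 32.0-fold and Gata3 at least 13.2-fold, although the smallest log2 difference among the Bach2 probe sets was 1.26. In B cells 9 of 14 were counted higher, 0 lower and 5 neither, and their median was 2.62, where 9.85% of all measured genes were higher and 10.3% lower. With quantile normalization or scaling to a common 75th percentile, 1 of them was lower in B cells. Bcl11a was at least 96.6-fold higher, Bach2 64.4-fold, Ebf1 at least 55.7-fold and Ets1 50.6-fold. Probe sets disagreed for Bcl11a and Ebf1, whose lowest values against ES cells were 0 and 0.41 on the log2 scale in B cells.

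Between T cells and B cells 4 of these 15 factors were at least 4-fold higher, 3 lower and 8 neither, with a median of 0.00, beside 2.49% higher and 1.85% lower over all measured genes. Bcl11b was 98.6-fold higher in T cells and Lef1 47.5-fold, and Ebf1 was 38.3-fold and Bcl11a 11.6-fold lower, although single probe sets of these gave log2 differences of -0.41 and 0. Gata3, at least 13.2-fold, and Gfi1 were the other factors counted higher, and Pax5 the other counted lower. Ets1 read 24961 in T cells, 16785 in B cells and 331.4 in ES cells. In this list Ets1, Bach2, Foxo1, Runx1 and Runx3 had the calls of Ikzf1 and Ikzf3 across the 3 comparisons. That combination was found in 6.53% of 12776 genes. The combination of Ikzf2 and Ikzf4, counted higher in T cells against each other population, was that of 0.83% of these genes.

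**Figure D4:**
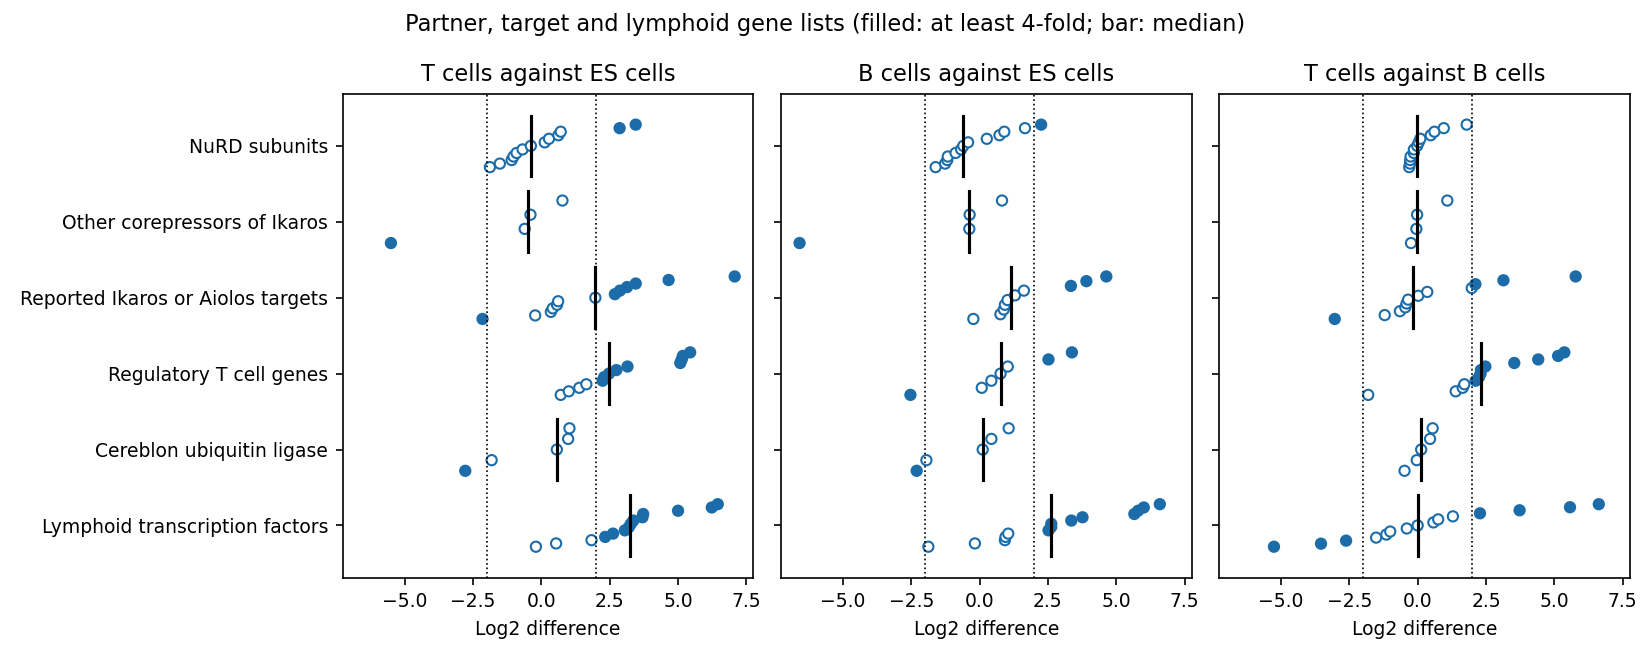
Log2 differences of the measured genes of 6 lists in the 3 comparisons, with 1 point per gene, filled where the difference is at least 4-fold, a bar at the list median and dotted lines at 4-fold. Of the 13 NuRD subunits 2 are filled in T cells against ES cells and 1 in B cells against ES cells, and of the 14 lymphoid transcription factors 11 and 9 are.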

How the data were processed

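Per the labels, total RNA extracted with Trizol was labelled with biotin with the GeneChip 3' IVT Express Kit, and the authors deposited 1 linear intensity value per probe set and array. Affymetrix Expression Console is named, per the submitters' processing notes, and the version, algorithm and scaling target remain not given in the sources used here. Trimmed means (2% off each end) were 497.7 for T cells, 497.8 for B cells and 497.3 for ES cells, so a change in total mRNA per cell cannot be seen.

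Of 45037 probe sets, 34945 had 1 gene symbol, 932 several and 9160 none listed. Symbols were checked by Entrez ID against a RefSeq table of GRCm38.p6, where 34741 were found and 0 changed. A gene was read from whichever of its probe sets averaged highest. Folds and log2 differences were computed from the deposited intensity values with Python 3.11.15, pandas 2.3.3 and NumPy 2.4.6. The computation was tested on simulated data, with changes only in genes far above the detection level, so floored folds were not tested. Of each gene list, up to 4 genes counted per comparison were named, with any counted against the list median, and of the marker lists up to 2 of the brightest per array. The family, lists and thresholds were chosen with earlier results of these data known. The precision of all values is limited by the number of arrays.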

Additional observations from a re-analysis of the deposited data

How the results depend on the processing

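Alternatives were 7 planned settings and 1 added after seeing the data. Quantile normalization, scaling to the 75th percentile and no floor with 16 added before the log2 kept all 6 counts of family members, although scaling to the 75th percentile moved the median of all measured genes to -0.42 for T cells and -0.37 for B cells against ES cells and, among genes past 4-fold, the higher share to 38.6% and 37.4%, beside 51.5% and 48.8% as deposited. Of 48 recomputed counts 40 stayed within 1.5 times. The counts of members at least 4-fold lower were 0 as deposited, and those that stayed 0 are among the 40. The total therefore says little about the members counted higher. A change from 4 to 3 also passes, as in T cells against ES cells with the mean of all probe sets. With every probe set required to pass 4-fold, dim ones included, 0 members were higher in T cells against ES cells, 1 in B cells against ES cells and 0 in T cells against B cells. Ikzf2 and Ikzf4 each have a probe set under the detection level on all arrays, which cannot pass. Ikzf1 and, in T cells against ES cells, Ikzf3 have measured probe sets whose floored folds, bounds against ES cells, fall short of 4-fold. With only measured probe sets required, these counts were 2, 1 and 2. In T cells against B cells, 1 member (Ikzf2) was higher with detection set at the 65th percentile or with the mean of all probe sets, and with a fold of 2, 1 (Ikzf3) was lower in T cells. Of 75 recomputed log2 differences of single members, 22 moved by more than the disagreement between probe sets and 0 of those past 4-fold changed sign. Ikzf1 in T cells against ES cells ranged from 3.71 to 9.02. No paired analysis was possible because each population had 1 array.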
